A study of Rattus norvegicus with 4 samples.

Results

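Macrophage-associated transcripts were followed across 2 epithelia of the rat mouth. The set holds 10 genes, the chains of complement C1q (C1qa, C1qb, C1qc), the signalling adaptor Tyrobp and its partner receptor Trem2, the growth factor receptor Csf1r, the endocytic receptors Mrc1 and Cd163, the lysosomal glycoprotein Cd68 and the cytoskeletal protein Aif1 (IBA1). All probe sets whose only annotated gene symbol was one of these names were taken, which gave 12 of 31042 probe sets on the array and 10 of 14217 genes. The genes were picked with their signals in peri-implant against junctional epithelium already known. Their values in that contrast are therefore a description, and no test is given for them.

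Of the 4 arrays, 2 held junctional epithelium, the collar of gingiva that seals against the tooth, and 2 held peri-implant epithelium, which lines the soft tissue around an implant of titanium alloy. All were from male Sprague Dawley rats, 4 weeks old when an upper left first molar was extracted and an implant placed, and both epithelia were collected 4 weeks later from 20 rats by laser microdissection of frozen sections. The labels give the junctional samples the same treatment, tooth extraction and implant placement, and whether they came from the same animals, and how many animals stand behind each array, is not stated in these sources. If the 2 arrays of a group are not from separate animals, their spread is partly technical. Values are log2 signals. Probe sets for 27 bacterial controls reached at most 6.42, which serves as the background level.

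Macrophages depend on signals through Csf1r, a tyrosine kinase that binds the ligands Csf1 and Il34. Trem2 senses lipids and cell debris and has no signalling tail of its own, so that it acts through Tyrobp (DAP12), an adaptor that also serves several other receptors of macrophages, neutrophils and natural killer cells. C1q, made largely by macrophages and immature dendritic cells, starts the classical complement pathway and tags dying cells. Mrc1 and Cd163 take up glycoproteins and haemoglobin and are best known from resident tissue macrophages. Langerhans cells and dendritic cells share several of these genes, so the set does not define a single cell type.

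Most of the set was higher in peri-implant epithelium, and a pair of genes was lower. Csf1r, Aif1 and Tyrobp were 2.67-fold, 2.40-fold and 2.16-fold higher, the 3 C1q chains were 1.66-fold to 1.92-fold higher, and Cd68 was 1.14-fold higher. Mrc1 and the brighter of the Trem2 probe sets were at least 2.22-fold and at least 2.74-fold lower, since both peri-implant arrays lay below background. Cd163 was below background on all 4 arrays and has no fold. In such bulk samples, a different number of cells and a different amount of RNA per cell cannot be told apart.

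**Figure D1:**
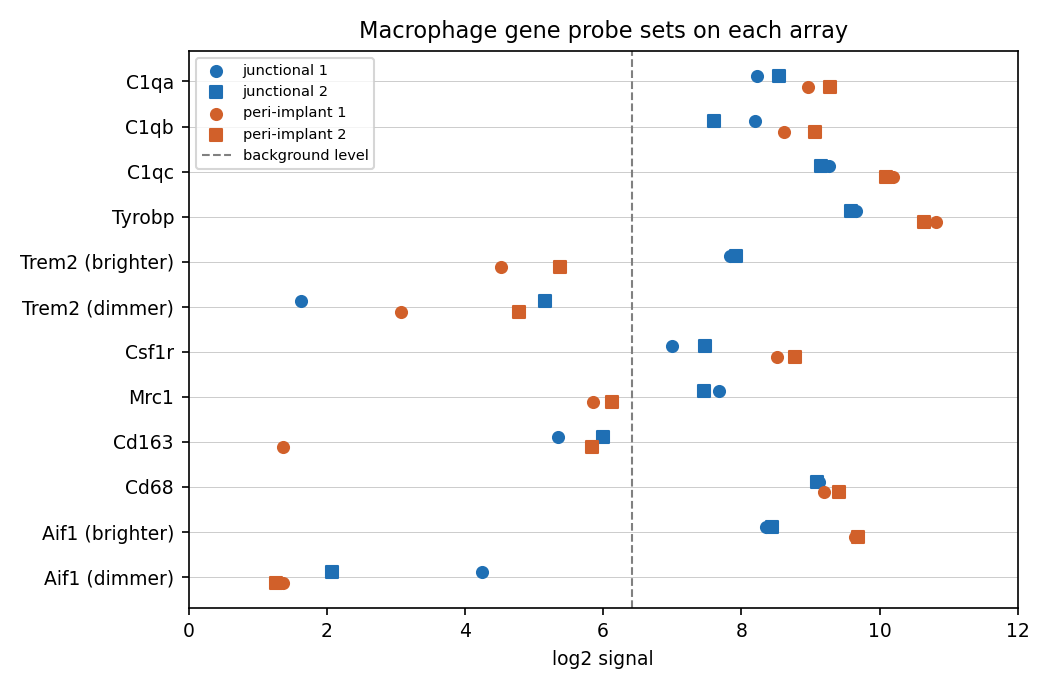
Log2 signal (x axis) of the 12 probe sets (rows) on each array, with junctional arrays in blue, peri-implant arrays in orange, circles for replicate 1 and squares for replicate 2. The dashed line is the background level of 6.42, and the peri-implant points of Mrc1 and of the brighter Trem2 probe set lie left of it while the junctional points lie right.

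The C1q chains lie side by side in the genome. In the assembly GRCr8, C1qb (chromosome 5, 154402276 to 154407827), C1qc (154410845 to 154414208) and C1qa (154417086 to 154419933) fill a stretch of 17658 bases in which no other listed gene starts. Promoter sequences from RefSeq (GRCr8) were matched by symbol for 7 of the 10 genes, and the 250 bases before each promoter entry's start were searched. Those of C1qa, C1qb, Cd68 and Mrc1 are printed, because the first pair lie in the same cluster and were higher together, Cd68 differed least and Mrc1 was lower. Capitals mark GAGGAA or GGGGAA on either strand (TTCCTC or TTCCCC when read from the opposite strand), short cores of the kind bound by ETS factors such as PU.1, a factor of myeloid cells.
C1qa, chr5:154419934-154420183, minus strand: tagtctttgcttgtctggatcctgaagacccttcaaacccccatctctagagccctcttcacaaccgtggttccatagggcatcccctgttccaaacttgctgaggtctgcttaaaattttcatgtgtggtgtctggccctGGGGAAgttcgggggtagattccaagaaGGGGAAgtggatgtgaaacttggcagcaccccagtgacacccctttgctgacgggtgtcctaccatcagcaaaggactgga
C1qb, chr5:154407828-154408077, minus strand: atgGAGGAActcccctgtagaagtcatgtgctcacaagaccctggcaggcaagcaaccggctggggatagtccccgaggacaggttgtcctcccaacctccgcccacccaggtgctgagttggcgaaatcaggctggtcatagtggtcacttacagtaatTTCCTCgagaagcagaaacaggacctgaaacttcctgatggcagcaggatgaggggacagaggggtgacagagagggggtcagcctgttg
Cd68, chr10:54882442-54882691, minus strand: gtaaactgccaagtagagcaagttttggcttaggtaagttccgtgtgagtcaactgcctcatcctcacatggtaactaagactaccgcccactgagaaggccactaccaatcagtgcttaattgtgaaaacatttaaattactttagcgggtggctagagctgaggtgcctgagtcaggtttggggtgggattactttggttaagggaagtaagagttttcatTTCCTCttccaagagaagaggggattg
Mrc1, chr17:82157475-82157724, plus strand: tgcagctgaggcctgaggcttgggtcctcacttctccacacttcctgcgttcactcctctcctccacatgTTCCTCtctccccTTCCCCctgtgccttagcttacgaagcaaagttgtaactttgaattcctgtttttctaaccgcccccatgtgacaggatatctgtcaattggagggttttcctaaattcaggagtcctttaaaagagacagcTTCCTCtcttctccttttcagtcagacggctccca

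The searched motifs were picked with the promoter sequences in view. One or the other core was present in 7 of 7 member promoters and in 38.2% of 27457 promoters of the same length. GAGGAA alone was found in 5 of 7 (23.2% of all promoters) and GGGGAA in 4 of 7 (19.8%). C1qa held 2 GGGGAA cores on the gene's strand, the nearer from 81 to 76 bases before the start, and C1qb held 2 GAGGAA cores, 1 on each strand. Both Mrc1, which was lower, and Csf1r, which was higher, held 3 cores. A link between the number of cores and the direction was not tested. The Csf1r window (chromosome 18, 56834129 to 56834378, plus strand) lies mostly within the gene, which is listed from 56834152. TATAAA was in 0 of 7 member promoters (13.1% of all), and TGANTCA, the core of AP-1 sites, in 1 of 7 (6.36% of all), that of Cd68, at 205 and at 80 bases before the start. Such matches are letters in a window, not measured binding.

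C1qc had signals of 9.27 and 9.15 on the junctional arrays and 10.19 and 10.10 on the peri-implant arrays. Both peri-implant values stood above both junctional ones by at least 0.84, several times the gap of 0.12 between the junctional replicates, and the difference of the means was 0.94. C1qa, which winds with the other two chains into the stalk of C1q, read 8.23 and 8.54 on the junctional arrays and 8.96 and 9.28 on the peri-implant arrays. Its groups did not overlap either, but the nearest arrays were 0.41 apart and the replicates 0.31 and 0.33, so the difference of 0.73 was less sharply set off. C1qb read 8.20 and 7.61 against 8.61 and 9.06, with junctional replicates 0.59 apart and a difference of 0.93. The differences of the 3 chains lay within 0.21 of each other, less than the largest gap between replicates of one chain, 0.59.

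Tyrobp, the adaptor that passes on signals of Trem2 and other receptors through a tyrosine motif, had signals of 9.66 and 9.58 on the junctional arrays and 10.81 and 10.65 on the peri-implant arrays. The groups were at least 0.99 apart and replicates at most 0.16 apart. Trem2 went the other way on its brighter probe set, with 7.83 and 7.92 on the junctional arrays and 4.52 and 5.38 on the peri-implant arrays. Both junctional arrays exceeded the background level and both peri-implant arrays fell short of it, so the measured difference of -2.93 shrank to -1.45 when low signals were raised to background. The dimmer Trem2 probe set gave 1.63 and 5.16 against 3.08 and 4.78, all below background, with overlapping groups. It therefore neither shares nor contradicts the direction of the brighter one, and the lower Trem2 signal rests on a single probe set. Tyrobp and Trem2 thus differed in direction, by 2.56 between their log2 differences with Trem2 held at background.

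Csf1r had signals of 6.99 and 7.47 on the junctional arrays and 8.51 and 8.78 on the peri-implant arrays. All 4 values were above background, the groups were at least 1.04 apart, and the difference of 1.42 was the largest among the members that were higher. Its ligands are named here for their role, after their values were seen, and neither passed limma's test with an intensity trend (described further below). The brightest of the 4 Csf1 probe sets read 7.34 ± 0.48 in junctional and 7.61 ± 0.31 in peri-implant epithelium (mean ± SD, n = 2), with overlapping groups. A second probe set, also above background on all 4 arrays, differed by -0.45, without overlap but with the nearest arrays only 0.11 apart. The direction of Csf1 thus depended on the probe set. Another was below background on both peri-implant arrays and differed by -0.34 with low signals raised to background, and the last was below background on every array and carries no direction. Il34 read 7.38 ± 0.45 against 7.68 ± 0.21, with overlapping groups.

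Mrc1, the mannose receptor, had signals of 7.68 and 7.46 on the junctional arrays and 5.86 and 6.13 on the peri-implant arrays. Junctional arrays were above background and peri-implant arrays below it, at least 1.32 apart, while replicates were 0.23 and 0.28 apart. Against Csf1r, the log2 difference of Mrc1 with low signals raised to background was lower by 2.57. Cd163, a scavenger receptor for haemoglobin, read 5.35 and 6.0 on the junctional arrays and 1.37 and 5.84 on the peri-implant arrays. All of these are below background, the groups overlap, and the measured difference of -2.08 came from peri-implant replicate 1 (0.16 without it), so the array shows no level of Cd163 in either epithelium.

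Cd68, a glycoprotein of late endosomes that many phagocytes and some other cells carry, had signals of 9.13 and 9.09 on the junctional arrays and 9.20 and 9.41 on the peri-implant arrays. The groups were separated by 0.06, less than the gap of 0.21 between the peri-implant replicates. Aif1, an actin-bundling protein of macrophages, read 8.36 and 8.44 on the junctional arrays and 9.64 and 9.69 on the peri-implant arrays on its brighter probe set. Here the groups were at least 1.20 apart and replicates at most 0.08 apart, the tightest of the set. The probe set's suffix marks probes shared by several transcripts. The dimmer Aif1 probe set read 4.24 and 2.07 against 1.36 and 1.27, below background on every array, and carries no direction.

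**Figure D2:**
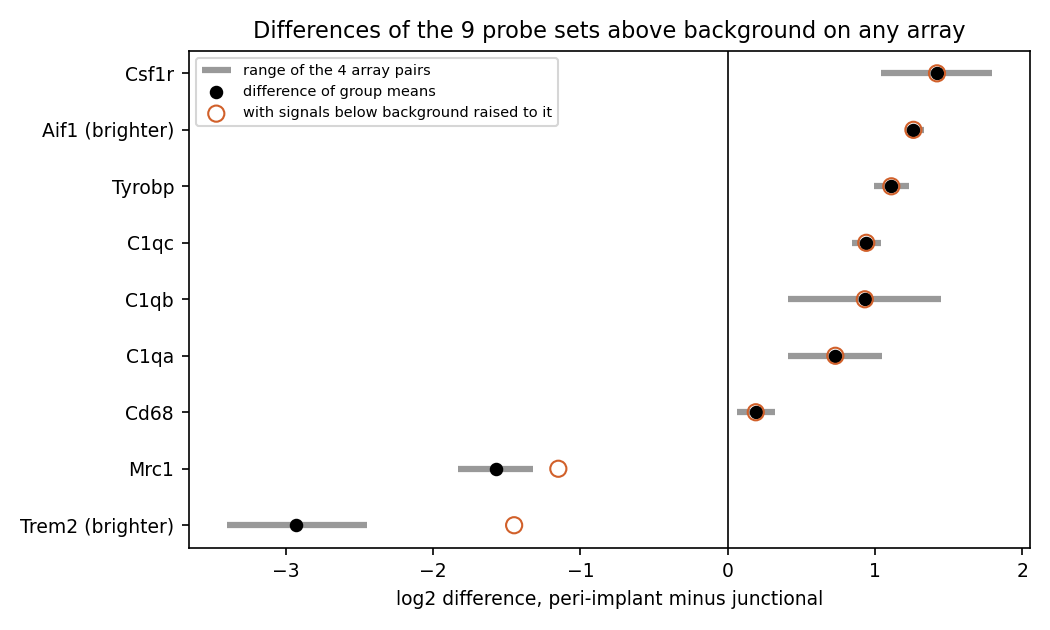
Log2 difference, peri-implant minus junctional (x axis), of the 9 probe sets above background on any array. Black points are differences of group means, grey bars span the 4 pairs of arrays, and open circles are the differences with signals below background raised to it, which shortens Trem2 from -2.93 to -1.45 and Mrc1 from -1.57 to -1.15 and leaves the others in place.

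Counted together, 7 probe sets were above background on all 4 arrays, 2 on some and 3 on none. Without overlap of the groups, 7 of 12 were higher in peri-implant epithelium, against 27.8% of all probe sets, and 3 of 12 were lower, against 25.4%. At least 2-fold apart as well were 3 higher (10.8% of all probe sets) and 3 lower (8.9%), the last counting the dimmer Aif1 probe set below background. The median difference was 0.63 over the 12 probe sets and 0.02 over all probe sets. As the genes were picked on this contrast, these shares support nothing beyond themselves. Sign changes on leaving out 1 array were limited to probe sets below background, Cd163 as given and the dimmer Trem2 probe set, which went from 0.53 to -1.23 without junctional replicate 1 and to -0.32 without peri-implant replicate 2.

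The 3 genes most like Csf1r over the 4 arrays, by the root mean square difference of log2 profiles centred on their means, were Per3 (0.05), Slc66a1 (0.05) and Hfe (0.06), of 9769 named genes above background on at least 2 arrays. Those most like Mrc1 were Gimap4 (0.03), Armcx1 (0.05) and Baalc (0.05). With 4 arrays in 2 groups, genes whose groups differ by a similar amount come out as alike.

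Other genes of macrophages and myeloid cells that are no members were counted in 7 lists, with 104 of 121 listed genes matched on the array. They were tested with limma across all genes, two-sided, with Benjamini-Hochberg adjustment at 0.05. The default fit passed 0 of 14217 genes (0%), although 2861 had an unadjusted p under 0.05. A fit whose variance prior follows signal intensity passed 7.39% of all genes as higher and 5.34% as lower in peri-implant epithelium. With that fit, 34 of the 104 rose, 4 fell and 66 did not pass. Their median difference was 0.60, and 0.05 over all genes. The 38 calls became 12 without junctional replicate 1, 14 without junctional replicate 2, 16 without peri-implant replicate 1 and 12 without peri-implant replicate 2, where a single array stands for one epithelium and is assumed to vary like the other group. Adjusted p-values below are those of limma with an intensity trend, over all genes.

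Adaptors, receptors and signal relays that work like or with Tyrobp held many of these calls. Of 15 measured genes of TREM and immunoreceptor tyrosine motif signalling, 8 rose, 0 fell and 7 did not pass, with a median difference of 0.86 and 14 of 15 without overlap in that direction (31.2% of all genes). Hcst (DAP10), an adaptor related to Tyrobp, read 6.01 and 6.07 on the junctional arrays and 8.72 and 8.65 on the peri-implant arrays. It rose at least 4.81-fold (adjusted p = 0.000863), with both junctional arrays below background. Vav1, a signal relay of blood cells, rose at least 2.49-fold (adjusted p = 0.0147), and the Fc receptor Fcgr3a rose from 6.57 ± 0.07 to 8.07 ± 0.07 (adjusted p = 0.0136). The kinase Syk, named for its role after its values were seen, differed by 0.26 with overlapping groups and did not pass (adjusted p = 0.604).

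Genes shared by most myeloid cells held many as well. Of 23 measured, 13 rose, 0 fell and 10 did not pass, with a median of 0.96. The signalling GTPase Rac2 rose at least 3.71-fold (adjusted p = 0.00514), the actin-binding protein Coro1a 3.23-fold (adjusted p = 0.00272) and Arhgdib 3.20-fold (adjusted p = 0.000307). These genes also serve neutrophils and lymphocytes.

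Scavenger receptors and genes of resident macrophages, the company of Mrc1 and Cd163, were mixed. Of 14 measured, 1 rose, 1 fell and 12 did not pass, with a median of -0.17, or -0.04 with low signals raised to background. Without overlap, 4 were higher and 6 lower (31.2% and 25.2% of all genes). Those lower include F13a1, below background on every array, and Igf1, whose nearest arrays were 0.02 apart. Hmox1, the haem-degrading enzyme, rose from 7.90 ± 0.46 to 9.43 ± 0.26 (adjusted p = 0.00619). Selenop, a selenium carrier made by many cells, fell from 14.20 ± 0.05 to 13.74 ± 0.00 (adjusted p = 0.004). Lyve1, a hyaluronan receptor of lymphatic endothelium and of some resident macrophages, read 6.67 ± 0.22 and 5.76 ± 0.31 and did not pass (adjusted p = 0.265).

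Among the 16 genes of lipid-handling phagocytes, a state in which Trem2 is known to act, 5 rose, 3 fell and 8 did not pass. Gpnmb, a lysosomal membrane glycoprotein, rose 2.47-fold (adjusted p = 0.00186), the protease Ctsd 1.90-fold (adjusted p = 0.000175) and the lysosomal lipase Lipa 1.88-fold (adjusted p = 0.0125). Those that fell were Lgals3, Ctsl and Cd63, named after their values were seen, by 0.35, 0.43 and 0.31 on the log2 scale. Keratinocytes express several genes of this list, so it is not particular to phagocytes.

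Of 10 measured growth factors, receptors and transcription factors of the macrophage lineage, 1 rose, 0 fell and 9 did not pass. Cebpb rose from 9.98 ± 0.00 to 10.78 ± 0.03 (adjusted p = 0.00241), while the receptor chains Csf2ra and Csf2rb differed by -0.91 (adjusted p = 0.0607) and 0.68 (adjusted p = 0.0532). Both of these chains passed limma's trend fit when it was run on genes above background on at least 2 arrays (adjusted p = 0.0346 and 0.0329).

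Partners of C1q and products of activated macrophages were counted next. Of 6 partners, 2 rose, 0 fell and 4 did not pass. The protease C1r, which C1q activates, rose 1.93-fold (adjusted p = 0.00836), and C3, further down the pathway, rose 3.22-fold (adjusted p = 0.000348). Serping1, the inhibitor of C1r, was 6.60 ± 0.13 and 7.48 ± 0.14 (adjusted p = 0.121). Of 20 activation genes 4 rose, 0 fell and 16 did not pass. Only 12 of the 20 had a group mean above background. The cytokine gene Il1b rose from 11.81 ± 0.03 to 13.37 ± 0.01 (adjusted p = 5.75e-06), Cxcl10 rose at least 2.32-fold (adjusted p = 0.0244) and Il10 at least 2.73-fold (adjusted p = 0.013).

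**Figure D3:**
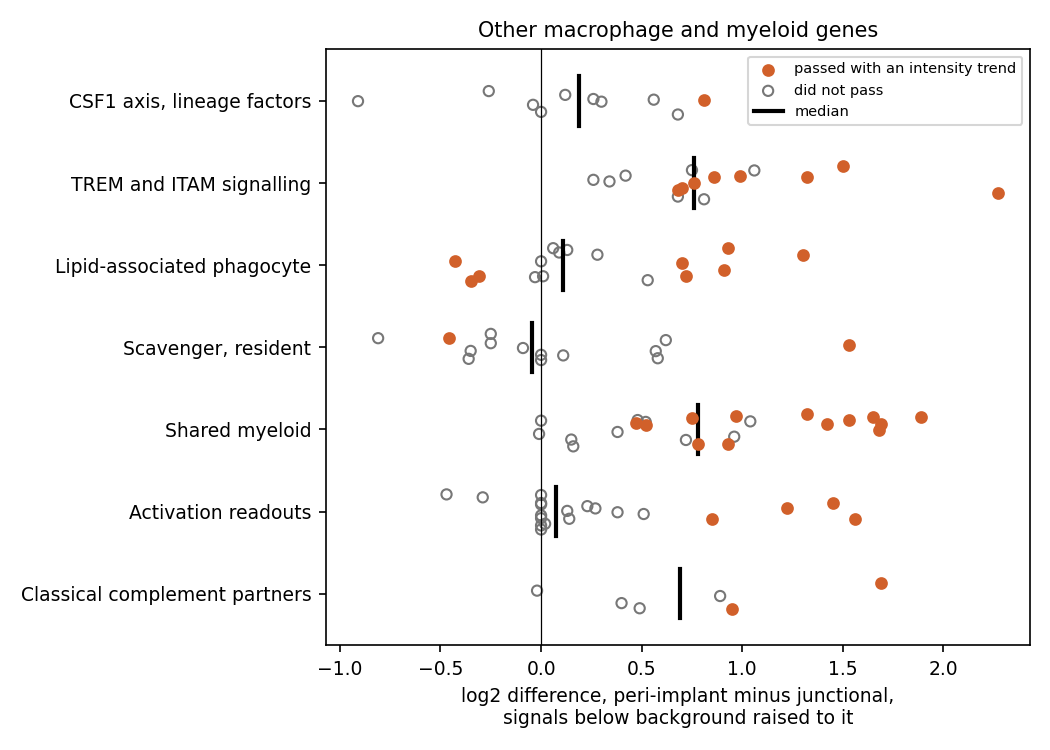
Log2 difference, peri-implant minus junctional, with signals below background raised to it (x axis), for each gene of the 7 lists of other macrophage and myeloid genes (rows), 1 point per gene. Filled points passed limma's test with an intensity trend on the signals as deposited, bars are medians, and the TREM and shared myeloid lists have their medians at 0.76 and 0.78 while the scavenger list has -0.04.

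Of the 25 named genes outside the set that passed this test, here and among the markers below, 6 passed also without each array in turn, Hcst, Ctsd, Arhgdib, Il1b, C3 and S100a9. The other 19 lost the call without at least 1 array. Fcgr3a, Lipa, Il10, C1r, Cd2, Col1a1, Ctsl and Cd63 lost it whichever array was left out. Cebpb, Selenop and S100a8 lost it without either junctional array, Coro1a without either peri-implant array, and Gpnmb without junctional replicate 1. Hmox1, Rac2 and Cxcl10 kept it only without junctional replicate 2, Vav1 only without junctional replicate 1, and Egfl7 and Lgals3 only without peri-implant replicate 1. Among the 19, the largest adjusted p of each gene in these fits of limma with an intensity trend lay between 0.0504 for Gpnmb and 0.223 for Col1a1. With arrays centred on their median, 4 of the 25 no longer passed, Col1a1 (adjusted p = 0.209), Lgals3 (0.0799), Ctsl (0.0536) and Cd63 (0.0958). All 25 kept their direction in these fits.

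Markers of other cells were counted in the same way, beside 7.39% of all genes that rose and 5.34% that fell in limma's test with an intensity trend. Of 10 neutrophil markers, 5 rose and 0 fell, with summed linear signals of 40700 and 41100 on the junctional arrays and 106000 and 93200 on the peri-implant arrays and no marker at 0. S100a8 and S100a9 made up 90.7% to 94.1% of these sums, and the other 8 markers summed to 3790 and 3830 against 6240 and 6490. The calprotectin subunits S100a8 and S100a9, which stressed keratinocytes also make, rose 1.74-fold (adjusted p = 0.000497) and 5.18-fold (adjusted p = 2.87e-06). Of 6 Langerhans and dendritic cell markers 1 rose and 0 fell, with sums of 418 and 569 against 834 and 1010 and Clec9a at 0 on an array. Of 11 T and NK markers 1 rose (Cd2, at least 2.49-fold, adjusted p = 0.0115) and 0 fell, with sums of 273 and 598 against 801 and 914 and Gzmb and Klrb1a at 0 on an array. Only 4 of these 11 had a group mean above background and 0 were above it on every array, so the sums include signals below background. With low signals raised to background, the median difference of the 11 was 0. Among 4 B and plasma cell markers 0 passed and all were below background in both groups, with sums of 34.8 and 29.5 against 118 and 98.6 and Ms4a1 at 0 on an array. The part of these cells in the higher Tyrobp, Aif1, Csf1r and C1q signals was not tested.

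Osteoclasts also carry Trem2 and Tyrobp, and bone lies under both epithelia. Of 7 osteoclast markers 0 rose and 0 fell, with sums of 11200 and 11700 against 11400 and 10400 and none at 0. Most of these sums came from Car2 (means of 12.46 and 12.21), Itgb3 (11.71 and 11.61) and Acp5 (11.00 and 11.33). Calcr and Tnfrsf11a were below background on every array, and Oscar, Dcstamp, Ocstamp and Atp6v0d2 were not matched. The part of osteoclasts in the Trem2 and Tyrobp signals was not tested. Of 8 mast cell markers 0 passed, 1 was above background in either group, and the sums were 251 and 446 against 362 and 394, with Fcer1a at 0 on an array. Of 7 endothelial markers 1 fell, Egfl7, from 9.23 ± 0.15 to 7.86 ± 0.09 (adjusted p = 0.00344), and the sums were 2360 and 2630 against 1860 and 1660. Of 9 fibroblast markers 2 rose, among them Col1a1 by 0.32 (adjusted p = 0.0215), and 1 fell, with sums of 47000 and 47200 against 54300 and 54400. Col1a1 itself stood at 14.03 ± 0.04 and 14.35 ± 0.07, so collagen transcripts were plentiful in the captured material of both groups. Its part, and that of endothelium, in the lower Mrc1 and Trem2 signals was not tested.

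**Figure D4:**
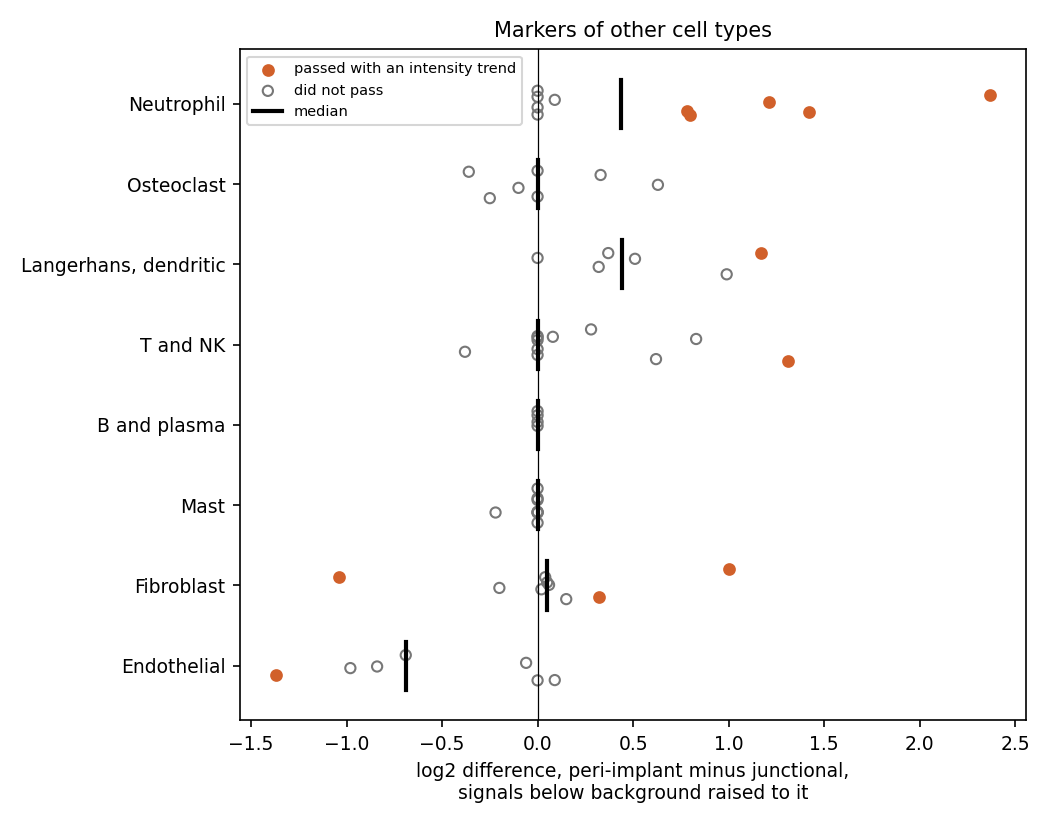
Log2 difference, peri-implant minus junctional, with signals below background raised to it (x axis), for each marker of 8 other cell types (rows), 1 point per gene, filled where limma's test with an intensity trend on the signals as deposited was passed. Bars are medians, at 0.43 for neutrophil and -0.69 for endothelial markers.

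Probe sets at a log2 signal of 0 numbered 729 and 378 on the junctional arrays and 666 and 382 on the peri-implant arrays, more on replicate 1 of each group. Between 54.6% and 56.8% of probe sets exceeded background on each, the Gapdh 3' signal exceeded the 5' signal by 0.52 to 0.68, and hybridization controls averaged 13.70 to 14.03, the highest on peri-implant replicate 1. All 12 measured keratinocyte markers were above background on every array. Of 10 genes listed for junctional epithelium, 7 were measured, and 5 of these were above background on every array. In limma's test with an intensity trend, 1 rose, 3 fell and 3 did not pass (7.39% of all genes rose and 5.34% fell). Odam and Amtn were not matched, and Ambn and Amelx were below background. Replicates spread less at higher signal. Their median SD was 1.47 where the mean was at most 4 and 0.72 from 4 up to background. It was 0.30 between background and 8, 0.16 from 8 to 10 and 0.10 from 10 to 12. Members between background and 8, such as Csf1r and Mrc1, are thus read less precisely than Tyrobp or C1qc.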

How the data were processed

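Per the labels' protocols, RNA was extracted with an RNeasy Micro Kit, amplified with the Ovation system and biotin-labelled. The deposited values are log2 signals. The authors' software and normalization were not stated in any source read. Every array shows the same mean linear signal after trimming 2% at each end and a floor at log2 0, and the values were used without further normalization. Groups and replicate numbers came from sample titles. Leaving out 57 control probe sets left 31042. Symbols came from the platform annotation (20826 probe sets with 1 symbol), updated by gene identifier from RefSeq's GRCr8 table. In tests over genes, the probe set with the highest mean stood for each gene. Sums of linear signal add these probe sets.

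limma 3.58.1 in R 4.3.3 compared peri-implant with junctional arrays (lmFit, eBayes, 2 residual degrees of freedom), with the default prior and with an intensity trend and robust prior, and was tested on simulated data. With 2 arrays against 2, an exact permutation test cannot go below p = 0.333, so none was run. A fold is given as "at least" where an array of the lower group was at or below background; signals there were raised to it. Members and lists were chosen with earlier results of these data known. Named were all members, then up to 3 genes per list of other macrophage genes (first those past the test with an intensity trend, by size, then by size above background), up to 2 brightest markers per other cell type, and 3 genes most like Csf1r and Mrc1; exceptions are stated. Alternatives were quantile normalization, median centring, a filter and a floor at background, a replicate block, mean probe sets and each array left out.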

Additional observations from a re-analysis of the deposited data

How the results depend on the processing

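limma's default fit passed 0 probe sets (5247 at an unadjusted p under 0.05), and also 0 with quantile normalization, median centring, the replicate block or any array left out, but 1316 among probe sets above background on at least 2 arrays, 350 with low signals raised to background and 2762 with an intensity trend. The 2762 became 4202 with the replicate number as a block and 73 to 353 with an array left out. They were 1470 higher and 1292 lower, against 1075 and 1170 with median centring. Same-numbered arrays correlated at 0.0394 in their deviations from group means, and at 0.0607 over probe sets above background on all arrays. With 2 arrays per group, such correlations cannot decide whether the replicate numbers pair the samples. Replicate 1 of each group had more probe sets at 0. Csf2ra and Csf2rb passed the trend fit with the replicate block (adjusted p = 0.0256 and 0.0412), and Csf2ra also with median centring (0.0424) and with the floor (0.0455). The 6124 probe sets 2-fold apart without overlap became 2174 with the filter and 1306 with the floor, where dim probe sets drop out by construction. The members' median of 0.63 was 0.93 with the filter, and 0.33 to 0.89 with an array left out. The 38 calls among other macrophage genes were 0 with the default prior, 45 with the replicate block and 12 to 16 with an array left out. Of 93 member values under alternatives, 89 moved by less than the replicate SD and 4 by more. By construction, leaving out an array cannot move a difference by more than that SD, and the filter leaves kept values unchanged. The floor also leaves probe sets above background on all 4 arrays unchanged. The count of 89 is therefore no measure of stability. The number of arrays and, for Mrc1, Trem2 and Cd163, signals near or below background limit precision.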
